A study of Mus musculus with 10 samples.

Results

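The 10 genes described here, Cd36, Fabp4, Fabp5, Gpihbp1, Lpl, Slc27a1, Slc27a3, Slc27a4, Aqp7 and Pparg, are those through which capillary endothelium captures, imports and carries fatty acids and glycerol. They were taken by name out of 46517 Ensembl genes in the count tables, a choice made with earlier results of these data known. Their levels were read in single endothelial cells (ECs) from mouse ear skin, sequenced by Smart-Seq2 in 384-well plates after sorting on Podoplanin and CD31 with CD45, CD11b, Ter119 and dead-cell stains in the dump channel. The 5 mutant mice carried the Pik3caH1047R;Cdh5-CreERT2 alleles and were Cre+, so that topical 4-OHT on the ears at 3 weeks of age induced Cre, under the control of the endothelial gene Cdh5, to switch on an activated form of the lipid kinase p110α in ECs. The share of ECs that recombined was not measured here, and mutant sums may hold cells without the active transgene. Control 1 was a wild-type C57BL/6J animal without treatment, control 2 was a Cre- animal of the mutant strain given the same 4-OHT, and all mice were analysed at 5 weeks of age. Both controls therefore lack Cre but differ in the transgene and in 4-OHT, and a difference between mutant and control mice rests on 2 control animals.

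Plasma triglycerides reach tissues through the capillary wall. Gpihbp1, an anchor on the luminal membrane of capillary ECs, holds lipoprotein lipase (Lpl), which splits triglycerides in the lumen; the fatty acids set free are taken up with the help of the membrane receptor Cd36 and carried through the cytosol by the binding proteins Fabp4 and Fabp5. The Slc27a family (fatty acid transport proteins) couples uptake to activation by coenzyme A, Aqp7 is a channel for glycerol and water, and Pparg is a nuclear receptor that binds fatty acids and is known to activate Cd36, Fabp4 and Aqp7 in adipocytes.

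Cells were assigned by 3 marker genes on each side. Of 3248 cells kept, 1490 were blood ECs (BECs), with Flt1, Emcn and Podxl together at or above 300 CPM (reads of a gene scaled to the reads of the cell or sum) and above Prox1, Flt4 and Mmrn1, 1641 were lymphatic ECs (LECs) by the mirrored rule, and 117 were neither. BECs were then split into cells with Apln at or above 50 CPM (Apln+, a marker of sprouting ECs), with Gja5 at or above 50 CPM (Gja5+, an arterial connexin) and with Ackr1 plus Selp at or above 100 CPM (Ackr1/Selp+, markers of venules). Cells that met none of these rules, 205 in controls and 359 in mutants, are called remaining BECs, and cells that met both the Apln and the Ackr1/Selp rule form a class of their own, of 10 control and 385 mutant cells. The remaining BECs carried the highest summed level of the 6 capillary markers Rgcc, Cd300lg, Car4, Kdr, Btnl9 and Sgk1 in the mutants, at 3309 to 5131 CPM against 390 to 1627 CPM in mutant Gja5+ cells and 1705 to 2096 CPM in mutant Ackr1/Selp+ cells. In the control mice the capillary sum was 3182 to 3296 CPM in remaining BECs and 2985 to 3242 CPM in Apln+ BECs, so that these did not differ by more than the spread between the control mice.

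Each mouse gave 157 to 330 BECs and 175 to 367 LECs, and values are reads summed over the cells of a mouse, 38402388 to 99630824 reads per mouse for BECs and 55616045 to 194353210 for LECs. Levels are CPM of these sums, and differences are log2 values of an edgeR quasi-likelihood fit across all genes, with 1 SE and a p adjusted over all genes tested; a gene is called at an adjusted p under 0.05. All 10 genes passed the filter on low counts in every fit. Transcripts of other skin cells stood out between the groups. The summed level of 6 fibroblast markers in BECs was 577 to 808 CPM in the controls and 12.8 to 43.5 CPM in the mutants, that of 6 mural markers 530 to 993 against 158 to 365 CPM, and that of 6 keratinocyte markers 244 to 430 against 10.9 to 548 CPM. Adipocyte markers, which matter here because adipocytes express several of the 10 genes at high level, reached at most 12.3 CPM in the BECs of a mouse, and only 1 of the 6 had any reads in control BECs. In remaining BECs alone their sum was 0.0978 to 41.4 CPM in mutants, with a median of 7.93 CPM, and 0.0340 to 0.0405 CPM in controls. Cycling genes moved the other way, with 7.04 to 22.5 CPM in control and 81.5 to 396 CPM in mutant BECs. Mutants 1 to 4 came from one series of plate numbers, and mutant 5 and both controls from another.

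None of the 10 genes shared exon bases with another gene of the annotation (GENCODE vM21, GRCm38). Cd36 spans chr5:17781690-17888801 on the minus strand, Fabp5 chr3:10012548-10016607 and Fabp4 chr3:10204088-10208576 lie on the same chromosome, Gpihbp1 spans chr15:75596628-75599481, Aqp7 chr4:41033074-41048139 and Pparg chr6:115360951-115490399. Lpl and Slc27a1 are on chromosome 8, Slc27a3 on chromosome 3 and Slc27a4 on chromosome 2. An antisense gene, Gm44079, overlaps Pparg within introns. RefSeq promoter windows (GRCm38.p6, 250 bases before to 50 after a start) were at hand for Cd36, Slc27a1, Slc27a3, Slc27a4, Aqp7 and Pparg. Nuclear receptors of the PPAR family bind repeats of the hexamer AGGTCA, and these windows were searched for it on both strands because Cd36 and Aqp7 moved together across BEC classes. The hexamer was found in windows of 3 of these 6 genes, Cd36, Aqp7 and Pparg. These were 5 of their 11 windows, and 16.26% of 32851 windows of all genes held it. Windows of a gene can overlap: the Aqp7 match at chr4:41048171-41048194 lies 49 bases before one start and 223 before another and was counted for both. The windows are thus not independent, and the shares were not tested against each other. The matches read, in the direction of the gene and with the hexamer or its reverse complement in capitals, as follows.
Cd36, chr5:17836110-17836133, minus strand: tgcactttaTGACCTgagattttc
Aqp7, chr4:41048171-41048194, minus strand: ctccacctcTGACCTcacaagggc
Aqp7, chr4:41048049-41048072, minus strand: ctgccctacTGACCTctcccctgg
Pparg, chr6:115361107-115361130, plus strand: cgccgcctcAGGTCAgagtcgccc
Pparg, chr6:115362331-115362354, plus strand: gacgcgaggAGGTCAagaaggggc
In Pparg the hexamers began 28 and 9 bases upstream of their starts. The direct repeat AGGTCANAGGTCA was in 0 windows of these genes and in 0.04% of all windows, and the forkhead core GTAAACA in 0 windows of these genes and in 3.65% of all.

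Per kilobase of the principal transcript, the control BECs carried most Fabp4, at 2288 CPM per kilobase, then Gpihbp1 at 1271, Cd36 at 665, Fabp5 at 193 and Aqp7 at 146 (means of 2 mice). The lipase Lpl, the transporter Slc27a3 and the receptor Pparg were close together, at 46.1, 40.7 and 43.4 CPM per kilobase, and Slc27a4 and Slc27a1 were lowest, at 4.95 and 2.44. With Smart-Seq2, which covers whole transcripts, this scale allows genes to be compared, and it depends on which transcript length is used: the deposited exon lengths of Fabp4, Fabp5 and Gpihbp1 are 4489, 3567 and 2554 bases against 896, 987 and 825 in the principal transcript. By the deposited length the order changed, with Cd36 at 630 CPM per kilobase above Fabp4 at 457 and Gpihbp1 at 410.

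Blood endothelium held more of most of these transcripts than lymphatic endothelium. Cd36 was at 2110 and 2413 CPM in the BECs of controls 1 and 2 and at 794, 1235, 1245, 1637 and 1054 CPM in those of mutants 1 to 5, against 99.8 and 62.4 CPM in control and 39.7, 29.9, 14.1, 27.6 and 21.3 CPM in mutant LECs. Fabp4 was at 1867 and 2233 CPM in control and 1712, 1829, 1570, 1523 and 2018 CPM in mutant BECs, and at 148 and 102 CPM in control and 76.7, 31.7, 32.0, 35.3 and 69.4 CPM in mutant LECs. In both cases every BEC value lay above every LEC value. Within mice, the log2 difference of BECs against LECs was 5.33 (SE 0.29) for Cd36, 4.91 (SE 0.29) for Fabp4, 4.54 (SE 0.31) for Fabp5 and 6.54 (SE 0.58) for Aqp7, with adjusted p of 6.63e-06, 9.43e-06, 1.66e-05 and 6.42e-05. Slc27a3 was higher in BECs by 3.20 (SE 0.18), Lpl by 2.45 (SE 0.48), Gpihbp1 by 2.41 (SE 0.25) and Pparg by 0.96 (SE 0.24), with adjusted p of 7.96e-06, 0.00599, 0.000159 and 0.0179. In all, 8 of the 10 genes were called, each higher in BECs, where 22.0% of 21933 genes tested were called in either direction. The genes' median difference was 2.82, against -0.02 over all genes tested. The transporters Slc27a1 and Slc27a4 stood apart, with differences of -1.55 (SE 0.61, adjusted p = 0.108) and -0.70 (SE 0.29, adjusted p = 0.118) that did not pass the test. Without control 2, whose BECs held Slc27a1 at 0.341 CPM, the Slc27a1 difference was -1.08 and passed it.

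**Figure D1:**
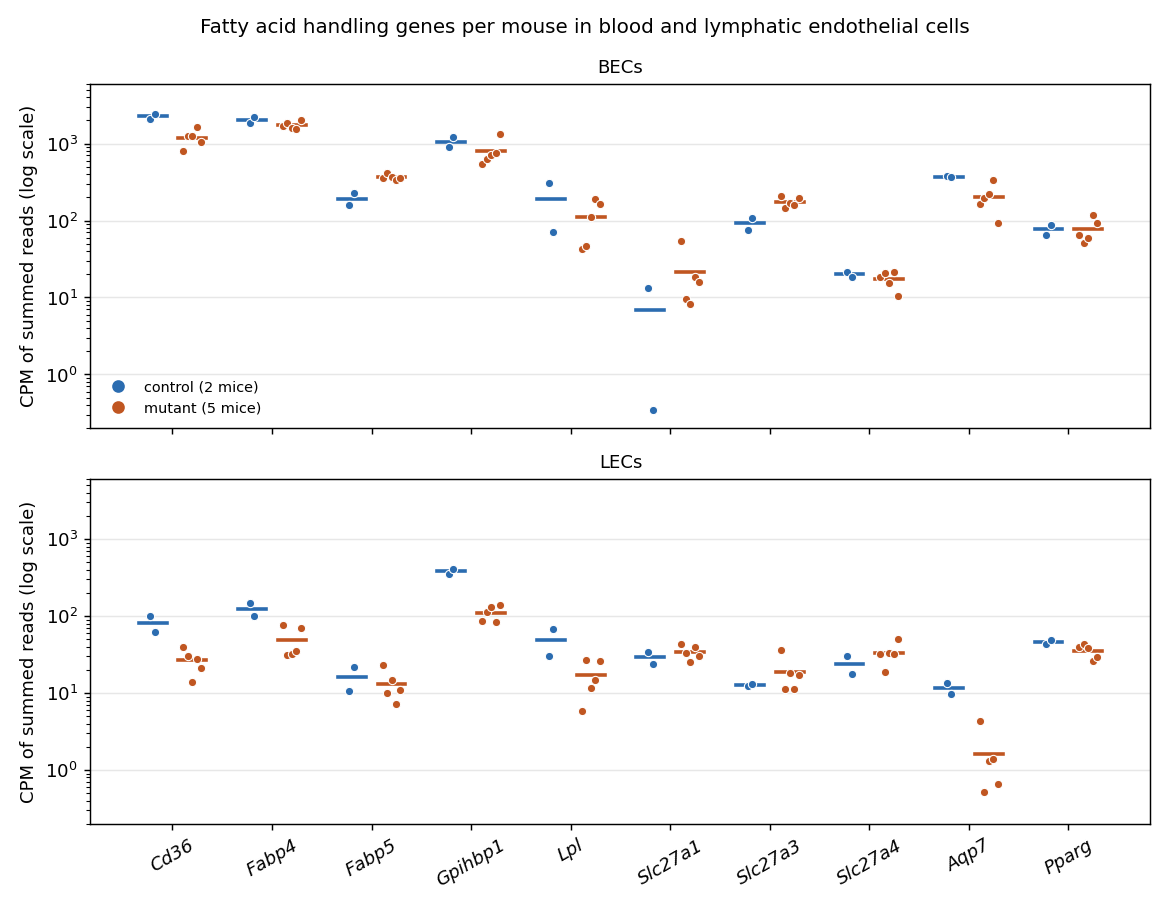
CPM of reads summed per mouse (log scale) for the 10 genes in BECs (top) and LECs (bottom); points are mice, short lines group means, blue the 2 controls and orange the 5 mutants. Cd36, Fabp4, Fabp5, Gpihbp1, Slc27a3 and Aqp7 lie higher in BECs in every mouse, while Slc27a1 and Slc27a4 do not.

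Among the genes with lower levels in LECs, the size of the step was uneven. Relative to the BECs of the same mouse, LECs held Aqp7 at 0.264 to 2.64% in mutants and 2.62 to 3.67% in controls, Cd36 at 1.13 to 5.00% and 2.59 to 4.73%, and Fabp4 at 1.73 to 4.48% and 4.55 to 7.95%. Gpihbp1 stood well above these, at 10.6 to 18.8% in mutants and 34.3 to 38.8% in controls. Lpl varied most between the controls, at 9.76% in control 1 and 96.0% in control 2, and was at 7.71 to 56.5% in mutants. Control 2 thus had almost no step in Lpl. Pparg was at 21.9 to 86.0% of its BEC level in mutants and 55.8 to 66.7% in controls, with the highest medians of the 8 genes called (61.8 and 61.2%).

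Within blood endothelium, the genes separated into those highest in remaining BECs and those as high or higher elsewhere. Against the remaining BECs of the same mouse, Ackr1/Selp+ BECs had 4 genes lower and 3 higher, 7 of 10 called where 3.47% of 16825 genes were. On the lower side were Aqp7, Cd36, Lpl and Gpihbp1, and on the higher side Fabp4, Fabp5 and the fatty acid transporter Slc27a3. The glycerol channel Aqp7 was at 518 and 471 CPM in control remaining BECs and 34.7 and 6.43 CPM in control Ackr1/Selp+ BECs. In mutants it was at 499, 645, 707, 961 and 255 CPM in remaining and 39.2, 2.36, 2.22, 87.1 and 1.60 CPM in Ackr1/Selp+ BECs, and its difference was -5.68 (SE 0.75, adjusted p = 0.00199). All 7 mice had less Aqp7 in the Ackr1/Selp+ cells, and the ranges did not overlap.

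Cd36 followed the same pattern with a smaller step. It was at 2696 and 3035 CPM in control remaining BECs and 1688, 3249, 2821, 3534 and 2106 CPM in mutant ones, and at 997 and 367 CPM in control and 410, 506, 1007, 943 and 743 CPM in mutant Ackr1/Selp+ BECs. The difference was -1.96 (SE 0.20, adjusted p = 0.000477). Lpl differed by -4.44 (SE 0.83, adjusted p = 0.0142), from 433 and 66.9 CPM in control remaining BECs to 118 and 3.91 CPM, and from 59.2, 125, 368, 553 and 417 CPM in mutant remaining BECs to 18.1, 1.57, 3.42, 2.52 and 32.8 CPM. Its anchor Gpihbp1 differed by -1.81 (SE 0.30, adjusted p = 0.00668), from 1169 and 1471 CPM in control remaining BECs to 331 and 243 CPM, and from 542, 869, 909, 922 and 1388 CPM in mutant ones to 311, 237, 186, 99.4 and 1032 CPM. Both partners of the lipolytic pair were thus lower in every mouse, mutant 5 keeping the most Gpihbp1. The Gpihbp1 call was lost, at -1.08 (adjusted p = 0.0605), with cells counted in every class whose rule they met.

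The cytosolic binding proteins Fabp5 and Fabp4 and the transporter Slc27a3 went the other way. Fabp5 was higher in Ackr1/Selp+ BECs by 0.91 (SE 0.12, adjusted p = 0.00184), with 253 and 459 CPM in controls and 391, 471, 392, 280 and 416 CPM in mutants against 158 and 203 CPM and 218, 269, 231, 177 and 197 CPM in remaining BECs. Fabp4 was higher by 0.42 (SE 0.08, adjusted p = 0.0179), at 2497 and 3449 CPM in controls and 1958, 2169.7, 2023, 1718 and 2687 CPM in mutants against 1891 and 2355 CPM and 1185, 1915, 1710.1, 1736 and 1886 CPM. Slc27a3 was higher by 1.16 (SE 0.24, adjusted p = 0.0268), at 137 and 96.8 CPM in controls and 232, 176, 138, 127 and 243 CPM in mutants against 49.5 and 72.3 CPM and 152, 43.3, 58.4, 92.6 and 84.1 CPM. For Fabp4 the step was small and mutant 4 had slightly less in its Ackr1/Selp+ than in its remaining BECs. The Fabp4 call was lost without control 2 (0.39), without mouse as a block (0.46, adjusted p = 0.164) and with cells counted in every class they met (0.22, adjusted p = 0.386), where 5 of the 10 genes were called, and the Slc27a3 call without mutant 2 (1.01), mutant 3 (1.13), mutant 5 (1.10) or control 1 (1.14). The median difference of all genes in this fit was -0.25.

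**Figure D2:**
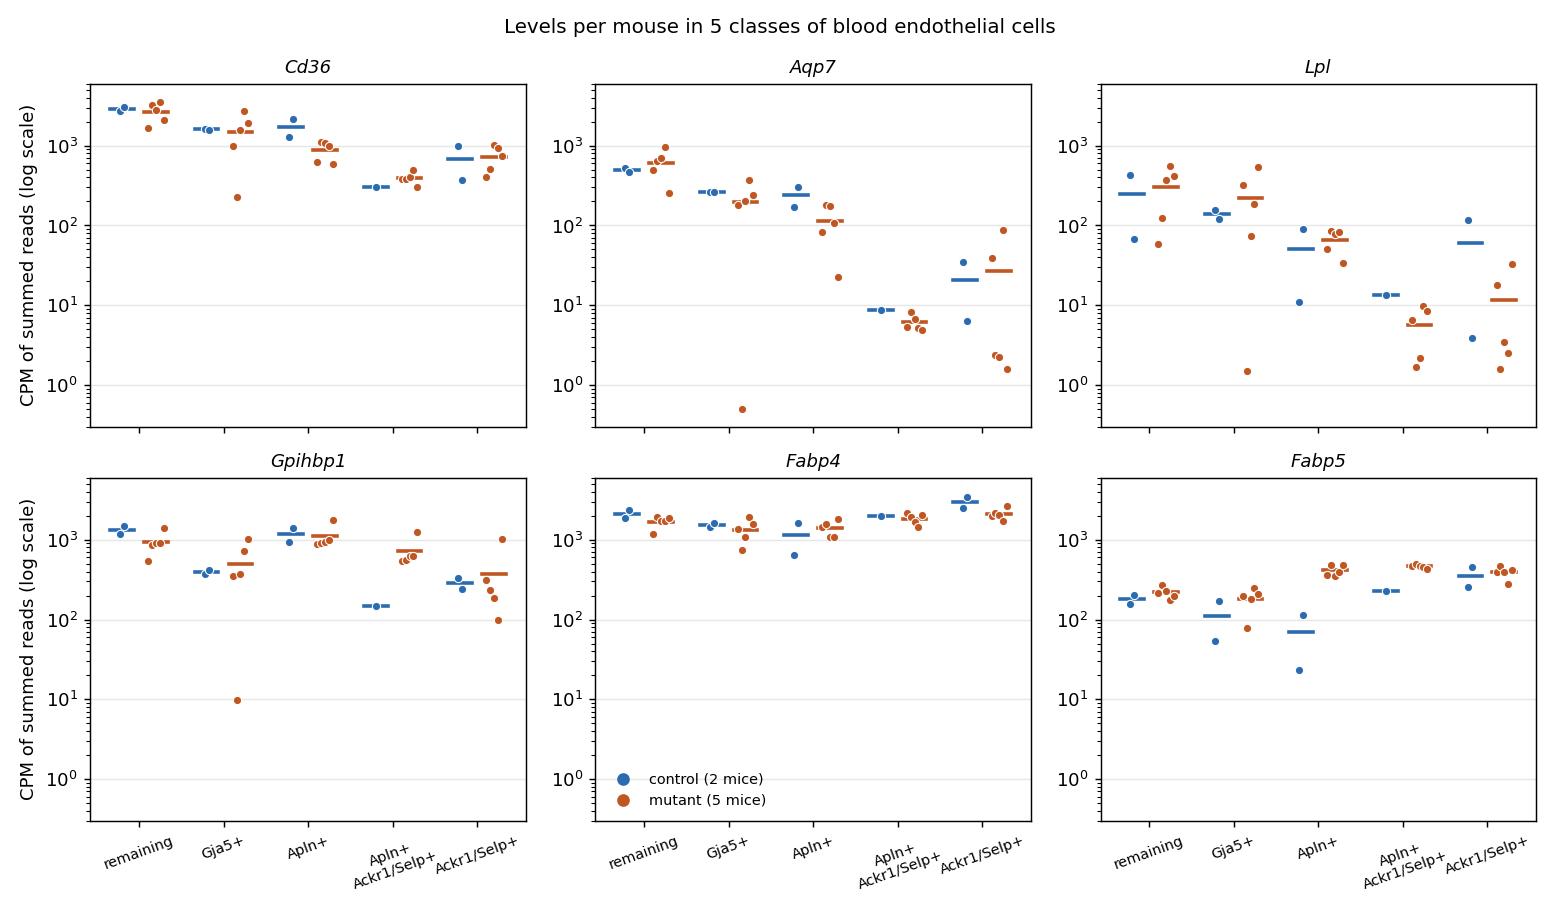
CPM of reads summed per mouse (log scale) for Cd36, Aqp7, Lpl, Gpihbp1, Fabp4 and Fabp5 in 5 classes of BECs; points are mice, short lines group means. Aqp7 falls from 255 to 961 CPM in remaining BECs to at most 87.1 CPM in Ackr1/Selp+ BECs, while Fabp4 stays between 642 and 3449 CPM in every class of at least 5 cells.

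The cells with both Apln and Ackr1/Selp, nearly all of them from mutants, had low levels of 3 of these genes as well; they were not tested against the Ackr1/Selp+ class. Against remaining BECs of the same mouse, Aqp7 was lower by a log2 difference of -6.46 (SE 0.28, adjusted p = 1.55e-05), Lpl by -5.58 (SE 0.54, adjusted p = 0.00107) and Cd36 by -2.82 (SE 0.14, adjusted p = 3.37e-05), and Fabp5 was higher by 1.00 (SE 0.14, adjusted p = 0.00498). These were 4 of 10 genes where 3.52% of 17783 were called. Cd36 was at 378, 378, 402, 495 and 300 CPM in mutants 1 to 5 and at 300 CPM in control 1, and Aqp7 at 5.30, 8.28, 6.67, 5.23 and 4.96 CPM and at 8.66 CPM. Control 2 had 3 such cells and did not enter the fit. Gpihbp1 did not pass here: at 538, 556, 632, 630 and 1253 CPM in the mutants and 150 CPM in control 1, its difference was -0.75 (SE 0.35, adjusted p = 0.349). Slc27a3 was at 193 to 269 CPM in mutants and 18.8 CPM in control 1, with a difference of 1.13 (SE 0.45, adjusted p = 0.268), which was 1.53 and called without control 1.

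Apln+ BECs without Ackr1 or Selp had less Cd36 and Aqp7 than remaining BECs. Cd36 was at 1275 and 2148 CPM in controls and 617, 1100.5, 1088, 1000.01 and 586 CPM in mutants, a difference of -1.37 (SE 0.16, adjusted p = 0.0102). Aqp7 was at 170 and 306 CPM in controls and 83.8, 179, 174, 108 and 22.4 CPM in mutants, a difference of -2.18 (SE 0.33, adjusted p = 0.0289). Each was lower in the Apln+ cells of all 7 mice. Only these 2 of 10 genes were called, where 0.367% of 17186 genes were. The Cd36 call was lost without mutant 1 (-1.32), 3 (-1.36) or 5 (-1.25), and the Aqp7 call without any single mutant (-2.08, -2.23, -2.20, -1.99 and -1.93 for mutants 1 to 5) or the mouse block (-1.93, adjusted p = 0.0583); with cells counted in every class they met the Aqp7 difference was -3.48. Gpihbp1 in Apln+ BECs was at 932 and 1398 CPM in controls and 880, 920, 949, 995 and 1762 CPM in mutants, so that its difference of 0.14 (SE 0.11, adjusted p = 0.73) was near 0 while Cd36 and Aqp7 were lower. Lpl (-1.98, SE 0.66) and Slc27a3 (1.29, SE 0.26) had adjusted p of 0.3 and 0.083. Control 1 contributed 7 Apln+ cells.

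In Gja5+ BECs 0 of 10 genes were called, where 0.583% of 16119 genes were, and DESeq2 called 0 of the 10. An unadjusted p under 0.05 was found for 2 of the 10, Cd36 and Gpihbp1, and for 2485 of the 16119 genes. Gpihbp1 was at 377 and 413 CPM in controls and 352, 9.90, 376, 733 and 1026 CPM in mutants, a difference of -1.37 (SE 0.57, adjusted p = 0.285), and Cd36 at 1640.3 and 1580.4 CPM in controls and 1003, 225, 1575, 2734 and 1929.9 CPM in mutants, a difference of -0.89 (SE 0.36, adjusted p = 0.281). Mutant 2, with 8 Gja5+ cells, had the lowest level of both genes and of Aqp7 (0.495 CPM). Cd36, Gpihbp1 and Aqp7 were each lower in the Gja5+ than in the remaining BECs of all 7 mice, Aqp7 by -1.47 (SE 0.73, adjusted p = 0.369). The median difference of all genes in this fit was -0.59.

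**Figure D3:**
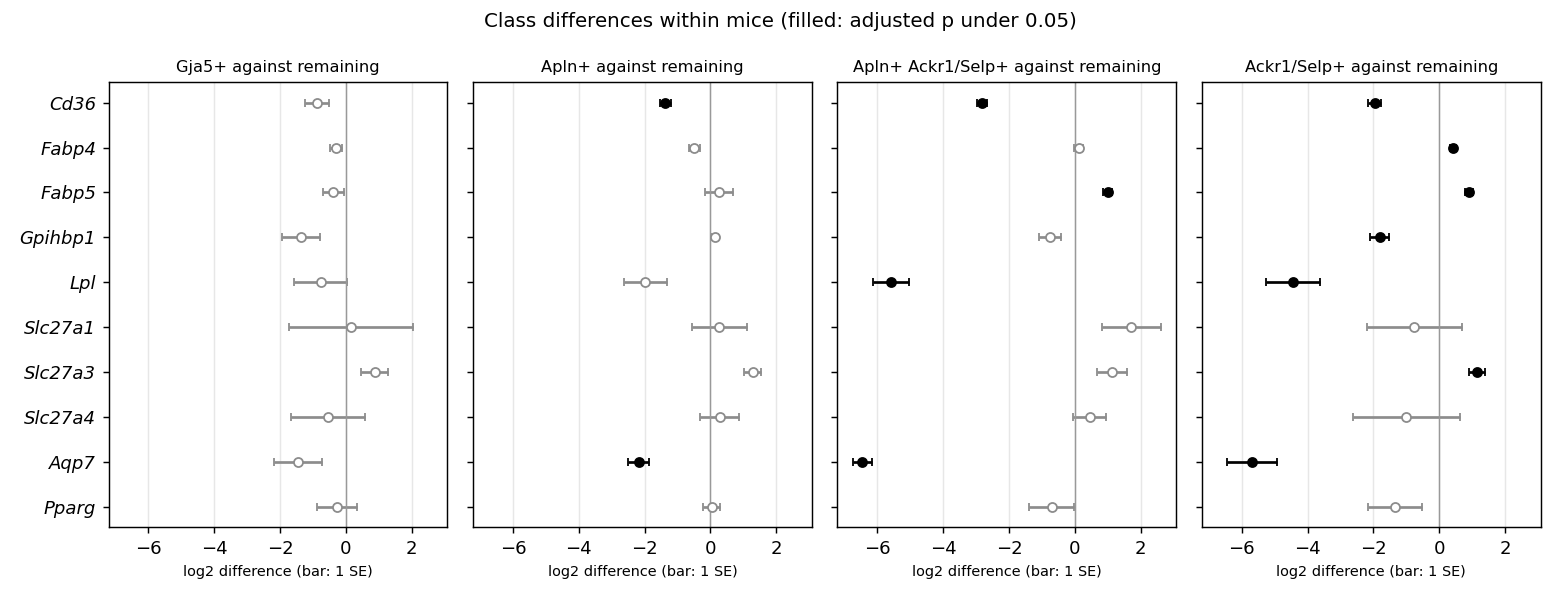
Log2 difference of each gene between a BEC class and the remaining BECs of the same mice, with 1 SE; filled points have an adjusted p under 0.05. Filled points are 0 in Gja5+, 2 in Apln+, 4 in Apln+ Ackr1/Selp+ and 7 in Ackr1/Selp+ BECs. Cd36 and Aqp7 are on the lower side in every panel, with filled points in the last 3.

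The class limits are cuts in a range. BECs with Apln at 25 to 50 CPM (90 cells) had a median Cd36 of 1472 CPM per cell and those at 50 to 100 CPM (46 cells) 361 CPM. BECs with Ackr1 plus Selp at 50 to 100 CPM (64 cells) had a median Cd36 of 1342 CPM and those at 100 to 200 CPM (37 cells) 64.8 CPM. Across this limit the median of Gpihbp1 went from 879 to 952 CPM and that of Fabp4 from 1946 to 1688 CPM. Both steps are opposite in sign to their differences in Ackr1/Selp+ BECs. The cells near a limit are pooled over mice and genotypes and can meet another class rule. BECs with Gja5 at 25 to 50 CPM (38 cells) had a median of 278 CPM and those at 50 to 100 CPM (15 cells) 1910 CPM. At the limit of the BEC rule itself, 66 BECs with a marker sum of 300 to 600 CPM had median levels of 373 CPM for Cd36 and 1434 CPM for Fabp4, and 21 cells just outside, at 150 to 300 CPM, had 383 and 944 CPM.

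Within a class the levels were uneven from cell to cell. Over the 205 control remaining BECs, the quartiles of Aqp7 were 6.88, 25.8 and 876 CPM per cell and those of Lpl 1.87, 10.3 and 32.4 CPM, so that most Lpl reads came from a minority of cells. Cd36 had quartiles of 1212, 3074 and 4472 CPM and Fabp4 of 972, 2383 and 3616 CPM. Among remaining BECs of a mouse, the Spearman correlation of Cd36 with Fabp4 across cells was 0.626 to 0.833 over the 7 mice, with Aqp7 0.428 to 0.698 and with Gpihbp1 0.474 to 0.713, whereas Cd36 with Slc27a3 gave -0.278 to 0.055. Cells of a mouse share 1 or 2 plates and differ in depth, and these correlations are descriptions.

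In BECs taken as a whole, mutant mice had more Fabp5 than controls. Fabp5 was at 157 and 224 CPM in controls and 361, 412, 365, 340 and 360 CPM in mutants, a log2 difference of 1.01 (SE 0.18, adjusted p = 0.0313). All 5 mutants lay above both controls and close together. It was the only gene of the 10 called, where 2.12% of 19315 genes were. An unadjusted p under 0.05 was found for 3 of the 10 and for 3793 of the 19315 genes. The call was lost without mutant 1 (1.02), 2 (0.96), 3 (1.01) or 4 (1.04) or control 1 (0.78), and with plate series as a term (0.96, adjusted p = 0.237); it held without cells that carried more of another cell type's markers than of their own (0.94, adjusted p = 0.0306) and without cycling cells (1.06, adjusted p = 0.0329).

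Slc27a3 and Cd36 also separated the groups without passing the test. Slc27a3 was at 76.0 and 108 CPM in controls and 209, 146, 167, 161 and 195 CPM in mutants, a difference of 0.99 (SE 0.20, adjusted p = 0.051), and Cd36, at the levels given above, differed by -0.86 (SE 0.23, adjusted p = 0.0938). DESeq2 called both, at adjusted p of 0.000306 and 0.01. Aqp7 was at 373 and 367 CPM in controls and 162, 197, 220, 333 and 92.0 CPM in mutants, a difference of -0.82 (SE 0.38, adjusted p = 0.281). Mutant and control values did not overlap for 4 of the 10 genes, Fabp5 and Slc27a3 above and Cd36 and Aqp7 below the controls, against 25.0% of all genes tested. For each of these 4 the side of mutant 5, from the same plate series as the controls, is set by the choice of genes without overlap. It therefore says nothing about plate series. With plate series as a term 0 of the 10 genes were called. Without cells high in another cell type's markers Cd36 differed by -0.997, Slc27a3 by 0.88 and Aqp7 by -0.95.

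The other genes overlapped between the groups in BECs. Gpihbp1 was at 897 and 1199 CPM in controls and 541, 634, 700, 743 and 1326 CPM in mutants, and mutant 5, unlike mutants 1 to 4, lay above both controls; its difference was -0.35 (SE 0.30, adjusted p = 0.555). Lpl was at 309 and 70.0 CPM in controls and 43.2, 47.1, 110, 191 and 166 CPM in mutants (-0.72, SE 0.67, adjusted p = 0.591), the controls being further apart than the group means. Fabp4 differed by -0.18 (SE 0.14, adjusted p = 0.489). Pparg was at 64.8 and 88.5 CPM in controls and 64.2, 50.3, 58.8, 119 and 93.8 CPM in mutants, a difference of 0.06 (SE 0.33, adjusted p = 0.935). Slc27a4 was at 21.5 and 18.6 CPM in controls and 10.6 to 21.2 CPM in mutants, and Slc27a1 at 13.3 and 0.341 CPM in controls and 8.12 to 54.6 CPM in mutants.

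A level summed over BECs moves with the mix of classes as well as with the level within each class, and the mix differed between the groups. Remaining BECs made up 31.2% ± 5.21 (SD, n = 5) of mutant and 64.9% ± 1.66 (SD, n = 2) of control BECs, and cells with both Apln and Ackr1/Selp 32.8% ± 4.11 (SD, n = 5) and 3.16% ± 1.76 (SD, n = 2). Gja5+ BECs were 5.08% ± 1.47 (SD, n = 5) and 10.4% ± 1.25 (SD, n = 2). In these 3 classes the mutant and control shares did not overlap, and the two-sided exact permutation p over mice was 0.0952, the smallest that 5 and 2 mice allow. Apln+ BECs were 15.7% ± 2.02 (SD, n = 5) of mutant and 9.53% ± 7.25 (SD, n = 2) of control BECs, and Ackr1/Selp+ BECs 14.0% ± 3.54 (SD, n = 5) and 10.8% ± 0.799 (SD, n = 2), each with an exact permutation p of 0.19.

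**Figure D4:**
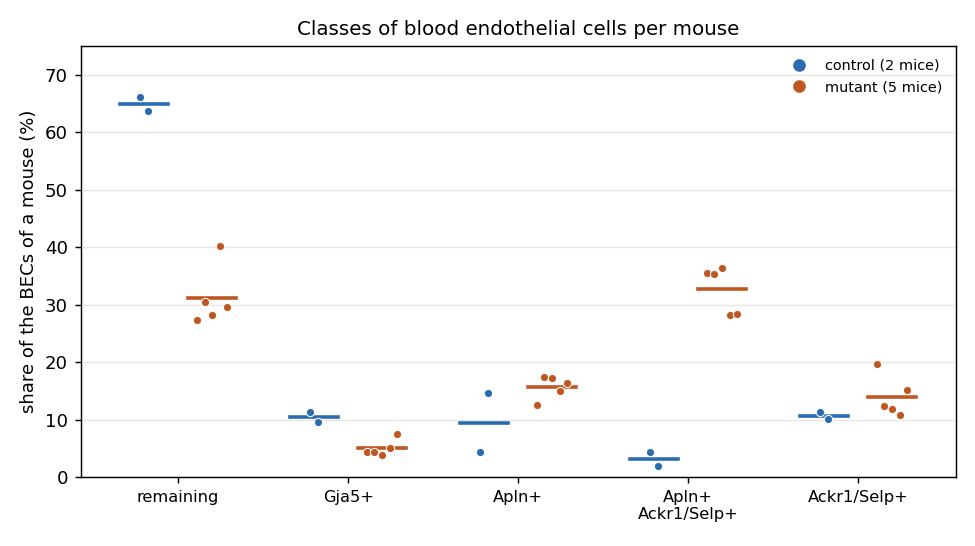
Share of the BECs of each mouse in 5 classes, in percent; points are mice, short lines group means, 2 controls and 5 mutants. Remaining BECs are 63.7 to 66.0% of control and 27.3 to 40.2% of mutant BECs, and the Apln+ Ackr1/Selp+ class 1.91 to 4.40% and 28.2 to 36.4%.

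The class levels of each mouse were therefore also averaged with fixed weights, the mean shares of BEC reads of the control mice (62.7% remaining, 11.3% Gja5+, 11.2% Apln+, 10.6% Ackr1/Selp+ and 4.23% Apln+ Ackr1/Selp+). With these weights Cd36 was 2040 CPM ± 559 (SD, n = 5) in mutants and 2136 to 2374 CPM in controls, and the ratio of mutant to control means went from 0.527 to 0.904. Aqp7 went from 0.543 to 1.15, Lpl from 0.588 to 1.22, Fabp5 from 1.93 to 1.36 and Slc27a3 from 1.91 to 1.29. For these 5 genes the ratio with the same class weights in both groups was nearer to 1 than the ratio over all BECs. In control 2 the Apln+ Ackr1/Selp+ class held 3 cells, under the limit of 5 per sum used in the fits. Gpihbp1 went from 0.753 to 0.795, Fabp4 from 0.844 to 0.821 and Pparg from 1.01 to 1.02, so that these changed little, and Slc27a4 from 0.861 to 0.716 and Slc27a1 from 3.13 to 4.22. The exact permutation p of the weighted levels was 0.19 for Fabp5 and 0.286 to 1.0 for the other 9. This weighting was added after the class shares had been seen, and the Apln and Ackr1/Selp rules assign cells by genes that may themselves respond to the mutation.

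**Figure D5:**
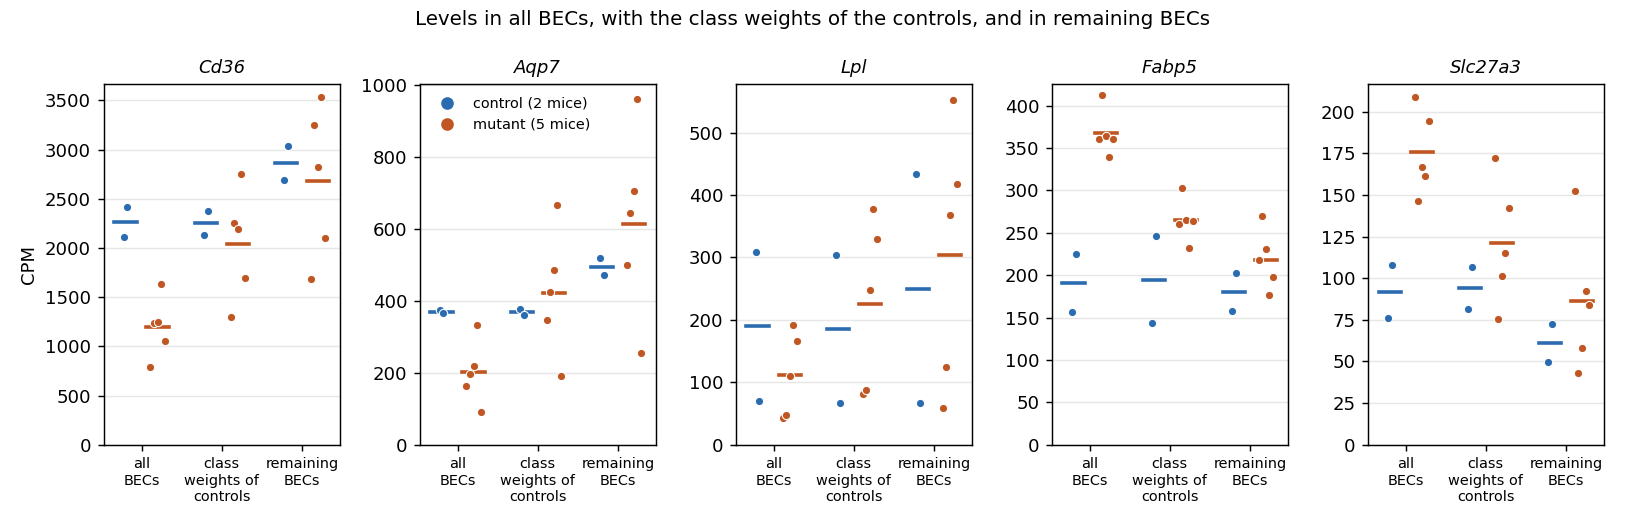
CPM per mouse for Cd36, Aqp7, Lpl, Fabp5 and Slc27a3 in all BECs, with the classes weighted as in the controls, and in remaining BECs; points are mice, short lines group means. Cd36 separates mutants (794 to 1637 CPM) from controls (2110 and 2413 CPM) in all BECs but spans 1300 to 2757 CPM in mutants against 2136 to 2374 CPM in controls with the class weights of the controls.

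Within remaining BECs 0 of the 10 genes were called between mutants and controls, and 0.00594% of 16845 genes were; 0 of the 10 had an unadjusted p under 0.05, 1285 genes did, and DESeq2 called 0 of the 10 and 298 genes in all. Cd36, at the levels given above, differed by -0.04 (SE 0.27, adjusted p = 0.992) and Fabp4 by -0.28 (SE 0.19, adjusted p = 0.787). Fabp5 differed by 0.34 (SE 0.24, adjusted p = 0.798), Gpihbp1 by -0.46 (SE 0.28, adjusted p = 0.733), Aqp7 by 0.37 (SE 0.42, adjusted p = 0.895) and Slc27a3 by 0.56 (SE 0.48, adjusted p = 0.839). The largest of the 10 differences, 3.69 for Slc27a1 (SE 2.04, adjusted p = 0.704), was not called either. In it mutant 1 was at 119 CPM and the other mutants at 0.639 to 9.21 CPM. With 1 gene called in all, this fit could detect little, and a gene not called is not shown to be equal. Slc27a4 was the 1 gene of the 10 whose CPM did not overlap, against 13.1% of all genes tested. It was at 29.3 and 21.1 CPM in controls and 7.73, 13.6, 5.50, 12.7 and 12.8 CPM in mutants, a difference of -1.21 (SE 0.65, adjusted p = 0.688). The shares of remaining BECs with a read, given further below, separated the groups for Cd36, Fabp4, Gpihbp1 and Fabp5. The fibroblast sum was 392 to 412 CPM in control and 19.3 to 93.6 CPM in mutant remaining BECs, and without cells high in another cell type's markers Cd36 differed by -0.06, Aqp7 by 0.36 and Slc27a4 by -1.37. Adipocyte markers were also unequal in this class, at up to 41.4 CPM in mutants and up to 0.0405 CPM in controls, and are among the lists by which those cells were left out.

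Within Ackr1/Selp+ BECs 0 of the 10 genes were called, where 0.0657% of 13703 genes were. An unadjusted p under 0.05 was found for 2 of the 10, Fabp4 and Slc27a4, and for 1583 of the 13703 genes. Fabp4 differed by -0.45 (SE 0.19, adjusted p = 0.39). Slc27a4 had 0 reads in both controls, among 5594808 and 3576210 reads, and 39.3, 40.2, 12.9, 2.52 and 7.93 CPM in mutants (adjusted p = 0.205), and was the 1 gene DESeq2 called. Cd36 differed by 0.15 (SE 0.43, adjusted p = 0.926) and Gpihbp1 by 0.39 (SE 0.70, adjusted p = 0.871), the latter with mutant 5 at 1032 CPM and the other mutants at 99.4 to 311 CPM. The controls had 16 and 18 such cells, and their fibroblast sum of 2335 to 3538 CPM, against 1.02 to 174 CPM in the mutants, was higher than in the other BECs; its part in these values was not tested.

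In LECs the mutants had less Gpihbp1. It was at 348 and 411 CPM in controls and 86.3, 112, 131, 83.7 and 141 CPM in mutants, a log2 difference of -1.73 (SE 0.22, adjusted p = 0.0108). All 5 mutants lay below both controls by a gap wider than the spread within either group. It was the only gene of the 10 called, where 2.76% of 19758 genes were. An unadjusted p under 0.05 was found for 5 of the 10 and for 3963 of the 19758 genes. The call was lost without control 1 (-1.77) and with plate series as a term (-1.37, adjusted p = 0.16), and it held without cells high in another cell type's markers (-1.79, adjusted p = 0.0071) and without cycling cells (-1.57, adjusted p = 0.0253).

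Cd36, Fabp4 and Aqp7 had lower levels in the LECs of every mutant than in those of either control, without passing the test. Cd36 differed by -1.58 (SE 0.36, adjusted p = 0.0577), Fabp4 by -1.32 (SE 0.38, adjusted p = 0.105) and Aqp7 by -2.81 (SE 0.76, adjusted p = 0.088). Aqp7 was at 13.7 and 9.62 CPM in controls and 4.28, 0.521, 1.30, 1.41 and 0.659 CPM in mutants, and Lpl at 30.2 and 67.2 CPM in controls and 5.84, 26.6, 11.7, 14.8 and 26.3 CPM in mutants (-1.45, SE 0.55, adjusted p = 0.192). DESeq2 called Cd36, Fabp4, Aqp7 and Gpihbp1. Without mutant 1, which had the highest Aqp7 of the mutants, Aqp7 was called by edgeR as well (-3.53). Mutants lay below both controls without overlap for 5 of the 10 genes (Gpihbp1, Cd36, Fabp4, Aqp7 and Lpl) and above for 0, against 25.2% of all genes tested in either direction. The median difference of the 10 genes was -0.83, against -0.01 over all genes.

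Fabp5, which was called in BECs, was at 10.7 and 22.1 CPM in control and 22.9, 9.91, 14.9, 7.31 and 10.9 CPM in mutant LECs, a difference of -0.26 (SE 0.47, adjusted p = 0.805). Pparg (26.0 to 43.2 CPM in mutants, 43.2 and 49.4 CPM in controls), Slc27a1 (25.5 to 43.3 and 23.9 to 34.2 CPM), Slc27a3 (11.3 to 36.1 and 12.2 to 13.0 CPM) and Slc27a4 (18.5 to 50.8 and 17.8 to 29.9 CPM) also overlapped between the groups and were not called. In LECs the fibroblast sum was 201 to 392 CPM in controls and 15.8 to 107 CPM in mutants and the mural sum 122 to 165 against 43.8 to 76.1 CPM. Without cells high in another cell type's markers, Cd36 differed by -1.46, Fabp4 by -1.27, Lpl by -1.50 and Aqp7 by -2.23.

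The difference between the genotype effects in BECs and in LECs was tested directly, with 0 of 10 genes called, where 0.191% of 21933 genes were. An unadjusted p under 0.05 was found for 4 of the 10 and for 2528 of the 21933 genes. DESeq2 called the same 4, Fabp4, Fabp5, Gpihbp1 and Aqp7, and 1253 genes in all. The effect in BECs was above that in LECs by 1.37 (SE 0.25, adjusted p = 0.0971) for Gpihbp1, 1.23 (SE 0.39, adjusted p = 0.276) for Fabp4, 1.34 (SE 0.40, adjusted p = 0.248) for Fabp5 and 2.23 (SE 0.72, adjusted p = 0.29) for Aqp7. By edgeR, the genotype effects of these genes were therefore not shown to differ between blood and lymphatic endothelium.

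The share of cells with at least 1 read, after each cell was thinned to 50000 reads, gave the same order of cell types. Cd36 had a read in 97.5% ± 0.918 (SD, n = 2) of control and 83.1% ± 4.41 (SD, n = 5) of mutant BECs, and in 71.2% ± 17.5 (SD, n = 2) of control and 36.9% ± 9.71 (SD, n = 5) of mutant LECs. Aqp7 had a read in 59.1% ± 9.76 (SD, n = 2) and 32.0% ± 7.95 (SD, n = 5) of BECs, and in 20.8% ± 12.4 (SD, n = 2) and 5.69% ± 2.79 (SD, n = 5) of LECs. Fabp5 had a read in 62.0% ± 1.45 (SD, n = 2) of control and 87.3% ± 2.19 (SD, n = 5) of mutant BECs, and in 18.7% ± 3.76 (SD, n = 2) and 22.2% ± 7.65 (SD, n = 5) of LECs. For these 3 genes the shares in BECs did not overlap between the groups, with an exact permutation p of 0.0952, the smallest possible. The same held for Fabp4 (96.6 to 99.3% in mutants, 100% in controls) and Slc27a3 (33.3 to 59.0% and 23.3 to 28.0%). In remaining BECs alone the shares also did not overlap for Cd36 (90.3 to 95.6% in mutants, 97.1 to 98.0% in controls) and Fabp4 (93.5 to 97.8% and 100%). Nor did they for Gpihbp1 (87.1 to 94.4% and 99.0%), and Fabp5 was higher in mutants (65.6 to 80.0% and 61.9 to 64.0%). Each of these had the same exact permutation p of 0.0952. How many of all genes separate in this way was not computed. In unthinned BECs the mutant minus control difference was -1.68 percentage points for Cd36, -27.5 for Aqp7 and 8.76 for Fabp5, against -14.3, -27.1 and 25.3 after thinning. Gpihbp1 had a read in 87.9% ± 6.31 (SD, n = 2) of control and 56.0% ± 12.1 (SD, n = 5) of mutant LECs. Median depth before thinning was 263898 reads per cell in control and 256824 in mutant BECs, and 303208 and 348667 in LECs.

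The wider pathway was read in a list of 58 genes, all of which had a row in the count tables. Between BECs and LECs, 13 of 53 genes tested were higher and 10 lower in BECs, with a median difference of 0.14. Over all genes tested 22.0% were called in either direction. On the higher side were the lipoprotein receptor Scarb1 (5.32), the phospholipid transfer protein Pltp (4.52), the transcription factors Meox2 (3.41) and Tcf15 (6.37), which in heart capillaries are known to drive Cd36 and other fatty acid uptake genes, the lipases Mgll (2.74) and Lipe (3.32) and the caveolar protein Cav1 (0.86). Angptl2, a secreted angiopoietin-like protein, was lower (-2.71). Of the 13 genes of acyl-CoA formation and oxidation 3 were higher and 4 lower, of the 12 tested genes of lipid droplets and lipolysis 3 higher and 2 lower, of the 12 regulators 2 and 2, and of the 16 tested uptake genes 5 and 2.

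In Ackr1/Selp+ and in Apln+ Ackr1/Selp+ BECs Tcf15 took the same side as Cd36 and Aqp7, while in Apln+ BECs, where those genes were called, it was not. Against remaining BECs it was lower in Ackr1/Selp+ (log2 difference -4.17, SE 0.69, adjusted p = 0.00749) and in Apln+ Ackr1/Selp+ BECs (-4.62, SE 0.28, adjusted p = 8.68e-05). In Ackr1/Selp+ BECs 2 of 48 pathway genes tested were higher, Meox1 (1.17) and Scarb1 (0.48), and 3 lower, Tcf15, Mgll (-1.19) and Cav1 (-0.93). In Apln+ Ackr1/Selp+ BECs Vldlr, a receptor for triglyceride-rich lipoproteins, was higher (3.33) and Tcf15, Mgll (-1.75), Pltp (-1.51), the triglyceride lipase Pnpla2 (-0.99) and Cav1 (-0.79) were lower, 6 of 51. In Apln+ BECs Meox1 (1.07) was the 1 gene called of 50, and in Gja5+ BECs 3 of 47 were called, all lower: Meox1 (-3.66), Pltp (-1.13) and Scarb1 (-0.99). Over all genes tested, 3.47% were called in Ackr1/Selp+, 3.52% in Apln+ Ackr1/Selp+, 0.367% in Apln+ and 0.583% in Gja5+ BECs.

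Between mutants and controls few genes passed the test, in the list as over all genes. In BECs, Cpt2, which completes the entry of fatty acids into mitochondria, was at 46.7 to 68.1 CPM in mutants and 21.6 to 23.2 CPM in controls (1.52, SE 0.22, adjusted p = 0.0163), and Tcf15 at 22.9 to 44.0 CPM and 84.8 to 133 CPM (-1.70, SE 0.29, adjusted p = 0.0293), 2 of 51 tested. In LECs, Dgat2, an enzyme of triglyceride synthesis, was at 4.98 to 7.04 CPM in mutants and 16.1 to 21.5 CPM in controls (-1.66, SE 0.31, adjusted p = 0.0355), and G0s2, an inhibitor of triglyceride lipase, at 19.7 to 55.3 CPM and 106 to 147 CPM (-2.03, SE 0.39, adjusted p = 0.0365), again 2 of 51. In remaining BECs 0 of 48 were called, in Ackr1/Selp+ BECs Lipe alone of 43 (3.47), and for the difference between the effects in BECs and LECs 0 of 53. Over all genes tested, 2.12% were called in BECs, 2.76% in LECs, 0.00594% in remaining and 0.0657% in Ackr1/Selp+ BECs. For the difference between the effects it was 0.191%.

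Over 35 sums of LECs and 4 BEC classes of the 7 mice, the genes whose log2 CPM ran most nearly parallel to Cd36 among 8878 genes were Kitl (Pearson r 0.951), Nrp1 (0.947), Lims2 (0.944), Flt1 (0.941) and Gpr17 (0.941). Flt1 is part of the rule for BECs. For Fabp4 they were Jam2 (0.977), Entpd1 (0.962), Tspan7 (0.961), Ly6c1 (0.957) and Scarb1 (0.955), and for Gpihbp1 Rgcc (0.842), Pcolce (0.796), Vsig2 (0.788), Ric1 (0.783) and Dysf (0.774). Among the 10 genes themselves, Fabp4 ran with Fabp5 (0.907) and Cd36 (0.894), Cd36 with Aqp7 (0.838), and Gpihbp1 with Aqp7 (0.716) and Lpl (0.690). The 35 points share mice, and the step between LECs and BECs sets much of each correlation, so these values are descriptions.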

How the data were processed

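The deposited values are read counts per gene and well, made by the authors with TopHat2 2.1.1 (GRCm38 plus a chicken PIK3CA sequence), SAMtools 0.1.18, duplicate removal and featureCounts; the annotation version is not given in the sources used here. Wells under 200 genes or 50000 reads or over 10% mitochondrial reads were dropped, which left 3248 of 3456, and 92 spike-in rows were not used. Plates held 99969650 to 151812175 reads. No doublet caller was run, and no well's counts repeated another's. Another control mouse was not analysed here.

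Reads were summed per mouse, with the plates of mutants 3 and 5 (2 each) added, and tested with edgeR 4.0.16 (R 4.3.3; quasi-likelihood F test, TMM, filterByExpr, Benjamini-Hochberg adjustment over all genes), with mouse as a block for comparisons within mice and at least 5 cells per sum. The study itself tested over cells, which are not replicates. DESeq2 1.42.0 was an alternative. Shares and weighted levels were compared by two-sided exact permutation tests over the 21 splits of 7 mice. The fits were checked on simulated counts.

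The genes, the 58-gene list and the cell rules were chosen with earlier results of these data known. The text names all 10 genes, of the list at most the 8 called genes with the smallest p per comparison, and the 5 genes most alike to Cd36, Gpihbp1 and Fabp4 among genes whose mean log2 CPM was 3 or more. The class with both Apln and Ackr1/Selp, the class weighting and the fit with sex, read from Xist and Y-linked genes, as a term were added after the data were seen. Reads carry no molecular identifiers, strand was not stated, and a processed pseudogene, Fabp5l2, may share reads with Fabp5.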

Additional observations from a re-analysis of the deposited data

Results flagged for a closer look

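Gpihbp1 in mutant 5 stood apart from the other 4 mutants in several sums of blood ECs. It was at 1326 CPM in BECs, where mutants 1 to 4 had 541 to 743 CPM, at 1762 CPM in Apln+ BECs against 880 to 995 CPM, at 1032 CPM in Ackr1/Selp+ BECs against 99.4 to 311 CPM and at 1253 CPM in Apln+ Ackr1/Selp+ BECs against 538 to 632 CPM. In LECs, mutant 5 had 141 CPM and the other mutants 83.7 to 131 CPM. Mutant 5 is the 1 mutant from the plate series of the controls, and with 1 such mouse the plate series and the animal cannot be told apart.

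Mutant 1 was lowest for Fabp4 in remaining BECs (1185 CPM against 1710 to 1915 CPM) and highest for Slc27a1 in BECs (54.6 against 8.12 to 18.4 CPM) and in remaining BECs (119 against 0.639 to 9.21 CPM), for Slc27a3 in LECs (36.1 against 11.3 to 18.5 CPM) and for Aqp7 in LECs (4.28 against 0.521 to 1.41 CPM). The share of BECs with a Slc27a1 read was 17.5% in mutant 1 and 5.45 to 7.59% in the other mutants, and that with a Fabp5 read 91.3% against 86.2 to 86.5%. Mutant 4 had 116 CPM of Slc27a4 in Gja5+ BECs, from 9 cells, against 0.583 to 31.7 CPM, and 40.2% of its BECs were remaining BECs against 27.3 to 30.4%. These are 13 samples apart in 106 groups of mice examined, by a limit that chance passes in about 1 of 20 independent groups, whereas these groups share mice and cells.

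The step from remaining to Apln+ BECs had opposite signs in mutant and control mice for Fabp5 and Gpihbp1. Fabp5 was higher in Apln+ BECs by 197 CPM on average in mutants (118 to 286 CPM, 5 of 5 mice) and lower in both controls (-134.7 and -88.2 CPM). Gpihbp1 was higher by 175 CPM in mutants (39.8 to 374 CPM, 5 of 5 mice) and lower in both controls (-237.3 and -73.3 CPM). These differences between the groups were not tested, and control 1 had 7 Apln+ cells.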

How the results depend on the processing

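Of the 23 called differences of the 10 genes, 0 changed sign under any alternative. Over 1320 repeated tests of all their differences, 1269 kept their side of the threshold, 29 calls were lost and 22 gained. Among those 1269, 58 changed sign, all for differences called in neither setting. The cause of these changes was not tested. DESeq2 called more of the 10 genes: 3 for the genotype effect in BECs, 4 in LECs, 4 for their difference, 4 in Apln+ BECs and 1 for genotype in Ackr1/Selp+ BECs, and 2238, 2490, 1253, 1055 and 745 genes in all; it called 1857 genes in Gja5+, 1946 in Ackr1/Selp+, 2172 in Apln+ Ackr1/Selp+ BECs and 298 for genotype in remaining BECs. Plate series as a term left 0 of the 10 genes in BECs and 0 in LECs (37 and 160 genes in all), first plates 0 in BECs and thinned cells 0 in BECs. A marker margin of 3 gave 2 in BECs and 2 in LECs. For all genes in LECs, 200 were called without cycling cells and 319 with equal cells per mouse. Without the mouse block 1 of the 10 was called in Apln+ BECs, 33 genes in all there and 147 in Gja5+ BECs; with cells counted in every class they meet, 4 of the 10 and 353 genes in Apln+ BECs. With no expression filter 2 genes were called for genotype in remaining and 47 in Ackr1/Selp+ BECs, and 0 in remaining BECs without cells high in another list.

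Leaving out each mouse in turn gave 0 to 1 of the 10 genes in BECs, 0 to 2 in LECs and 0 to 2 in Apln+ BECs. Over all genes the ranges were 159 to 586 in BECs, 153 to 546 in LECs, 0 to 21 for their difference, 11 to 82 in Apln+, 26 to 89 in Gja5+, 350 to 441 in Ackr1/Selp+ and 339 to 946 in Apln+ Ackr1/Selp+ BECs, and for genotype 0 to 1 in remaining and 1 to 20 in Ackr1/Selp+ BECs. The sign of 3 mutant minus control shares near 0 changed: BECs of other mixed classes (0.228 points with class limits doubled, -1.28 to 1.24 with a mouse left out), BECs with a Slc27a1 read (-1.45 unthinned, -0.638 to 7.52) and with a Pparg read (-3.33 unthinned, -4.02 to 5.15).

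Replicate numbers do not pair the mice: deviations of same-numbered mice correlated at 0.01 and 0.10 in BECs and -0.03 and -0.04 in LECs. A fit with the replicate block, which only mice 1 and 2 inform, called 0 of the 10 genes in BECs and 0 in LECs, and 0, 4, 19 and 5 genes in all for genotype in BECs, LECs, remaining and Ackr1/Selp+ BECs. Depth limits the low genes most: Slc27a1 and Slc27a4 rest on few cells per mouse, and with 2 controls a call can hang on 1 mouse.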
